A study of Mus musculus with 9 samples.

Results

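The genes described here are 10 genes of fatty acid synthesis and desaturation, read from 10 of the 55401 entries of a mouse colon expression table by gene name: Fasn, Acly, Acaca, Scd1, Scd2, Elovl5, Elovl6, Me1, Fads1 and Srebf1. They are a list of gene names of lipogenic enzymes and their regulator, and each name matched 1 entry. RNA from colonic tissue of WT mice was sequenced in 9 libraries that form 3 groups of 3. The first group received berberine, a plant alkaloid, the second a high fat diet and the third a chow diet. The titles of the high-fat diet and chow libraries also carry AOM and DSS, which usually stand for azoxymethane, a colon carcinogen, and dextran sulfate sodium, a chemical that injures the colon lining. The labels give neither the diet of the berberine group nor whether it received AOM and DSS, and they give no strain, age or sex. They do not say whether the libraries came from separate animals, so the p-values measure only the spread between these libraries, which may be technical.

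Fatty acid synthesis takes place in the cytosol. ATP citrate lyase (Acly) splits citrate into acetyl-CoA, acetyl-CoA carboxylase (Acaca) makes malonyl-CoA from it, and fatty acid synthase (Fasn) builds palmitate with NADPH that malic enzyme (Me1) helps to supply. Elongases (Elovl6 for palmitate, Elovl5 for polyunsaturated chains) lengthen the chain, stearoyl-CoA desaturases (Scd1, Scd2) put in the first double bond, and Fads1 is the delta-5 desaturase of polyunsaturated fatty acids. Srebf1 encodes SREBP-1, the transcription factor that is known to raise most of these genes when insulin or LXR ligands are present. Scd1, Acly, Fasn and Me1 are also known as abundant in fat tissue.

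Promoter windows are shown for Fasn, Acly and Srebf1, because these are the members whose level differed between groups and whose annotated start in RefSeq is also the 5′ end of the gene in the deposited table. Each window is 300 bases of GRCm38.p6 from RefSeq, on the minus strand of chromosome 11, written 5′ to 3′ with the end of the window just inside the gene. Capitals mark CCAAT boxes, the site of the factor NF-Y, and GC boxes, the site of Sp1, on either strand.
Fasn, chr11:120824498-120824797: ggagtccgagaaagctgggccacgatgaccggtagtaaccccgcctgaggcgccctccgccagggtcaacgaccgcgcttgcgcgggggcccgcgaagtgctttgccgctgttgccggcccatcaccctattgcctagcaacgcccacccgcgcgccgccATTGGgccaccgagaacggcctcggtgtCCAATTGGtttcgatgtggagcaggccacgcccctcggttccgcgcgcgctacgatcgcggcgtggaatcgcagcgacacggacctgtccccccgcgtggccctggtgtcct
Acly, chr11:100527951-100528250: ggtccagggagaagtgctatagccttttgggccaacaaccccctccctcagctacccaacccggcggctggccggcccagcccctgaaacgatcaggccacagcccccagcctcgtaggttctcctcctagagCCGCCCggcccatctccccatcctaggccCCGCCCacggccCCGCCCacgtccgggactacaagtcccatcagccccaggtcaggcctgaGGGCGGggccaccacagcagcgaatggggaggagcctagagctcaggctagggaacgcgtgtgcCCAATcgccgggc
Srebf1, chr11:60222532-60222831: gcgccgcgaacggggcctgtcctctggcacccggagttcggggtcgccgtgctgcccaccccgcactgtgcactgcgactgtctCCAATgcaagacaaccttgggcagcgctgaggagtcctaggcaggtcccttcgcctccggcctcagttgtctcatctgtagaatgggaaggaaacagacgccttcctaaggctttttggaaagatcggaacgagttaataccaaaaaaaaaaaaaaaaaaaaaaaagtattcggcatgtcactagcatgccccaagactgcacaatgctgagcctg
The Fasn window held 3 matches to CCAAT, of which a pair overlap as one palindrome, and no GC box (GGGCGG). The Acly window held 1 CCAAT and 4 GC boxes, and the Srebf1 window held 1 CCAAT and no GC box. RefSeq lists 2 more Srebf1 starts, and their windows held 1 CCAAT and 2 GC boxes (chr11:60210422-60210721) and 3 GC boxes with no CCAAT (chr11:60220578-60220877). The sterol regulatory element core (TCACNCCAC) and the E-box (CACGTG) matched none of these 3 windows on either strand. Over all 32851 promoter windows in the RefSeq table, CCAAT was present in 37.4%, GGGCGG in 35.7%, CACGTG in 7.2% and TCACNCCAC in 1.2%. Windows were available for 7 of the 10 genes.

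All 10 genes were well measured. Their lowest estimated count in any library was 840, for Me1, and their highest was 43714, for Scd1, where library totals ran from 51961764 to 69007117. Low counts pile up at multiples of 4 (38.5% of those from 1 to 20), so 1 sequenced fragment may give more than 1 count. The counts may thus overstate the number of molecules, by an amount that was not measured. On the FPKM scale, which divides by transcript length and so allows levels of different genes to be compared, Scd1, Acly and Scd2 led in every group and Acaca was lowest. In the berberine libraries the mean levels were 89.9 ± 60.4 FPKM for Scd1, 60.4 ± 9.45 for Acly and 47.3 ± 3.81 for Scd2 (SD, n = 3). In the high-fat diet libraries Scd2 came first with 53.5 ± 9.07 FPKM, and its lowest library stood above every library of Acly, at 31.8 ± 6.23, and of Scd1, at 31.3 ± 10.3. In the chow libraries Acly had 49.0 ± 21.7 FPKM, Scd2 38.7 ± 9.25 and Scd1 30.2 ± 4.97, with ranges that overlapped.

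The middle of the order was held by Elovl5, Srebf1, Fasn and Fads1. Fasn had 15.99 ± 1.97 FPKM in berberine libraries, 29.4 ± 5.94 in high-fat diet libraries and 13.3 ± 3.51 in chow libraries, and it ranked higher in the high-fat diet group than in the other groups. Fads1 had 6.76 ± 1.05 FPKM in berberine libraries, where it overlapped Me1, 17.6 ± 4.77 in high-fat diet libraries, where it stood clear of Me1, and 9.98 ± 1.895 in chow libraries. Me1, Elovl6 and Acaca filled the last places in all 3 groups, with Acaca at 2.76 ± 0.234 FPKM in berberine libraries, 3.28 ± 0.505 in high-fat diet libraries and 2.93 ± 0.791 in chow libraries. The acetyl-CoA carboxylase gene of the cytosol was therefore the least abundant member per length in each group. In chow its range overlapped that of Elovl6.

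**Figure D1:**
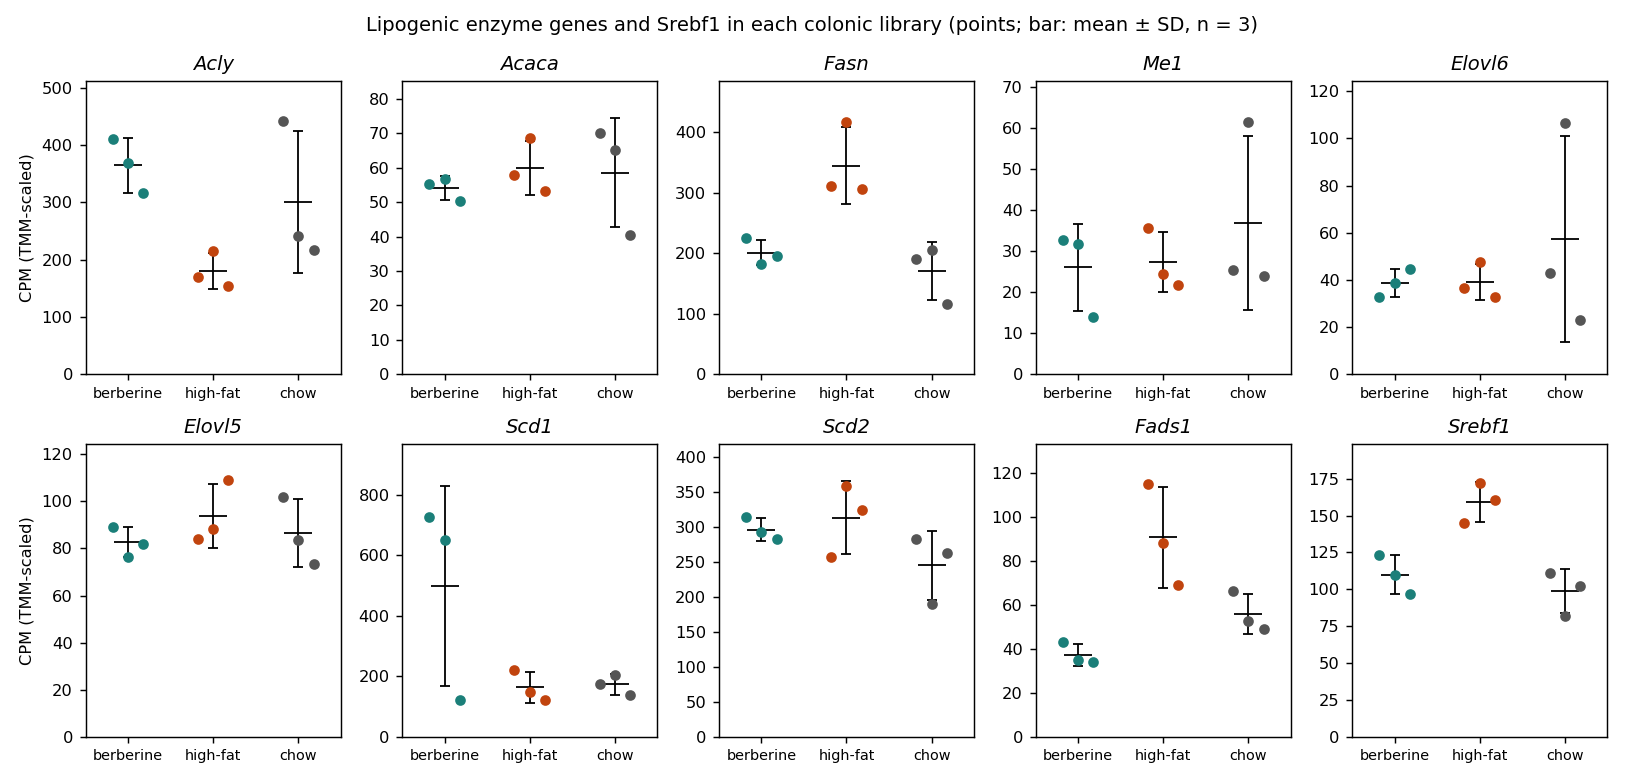
TMM-scaled CPM (counts scaled to a common library size, vertical axes from 0) of the 10 genes in each library (points, replicates 1 to 3 from left to right), with the mean and SD of each group (bars, n = 3). Fasn, Srebf1 and Fads1 stand highest in the high-fat diet group, Acly stands lowest there, and chow replicate 2 is far above the other chow libraries for Elovl6 and Me1, while berberine replicate 3 is far below the other berberine libraries for Scd1.

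The high-fat diet group was compared with the chow group, which asks how the diet altered these genes in colons that share AOM and DSS. Fasn, Srebf1 and Fads1 rose, no member fell, and the other 7 genes did not pass the test. A gene is called when its Benjamini-Hochberg adjusted p in edgeR's quasi-likelihood test was under 0.05 over all 14506 genes tested. The background was large: 31.8% of all tested genes were called in this comparison, 15.2% as higher and 16.6% as lower, so 3 of 10 members (30.0%) is close to the share of all genes. Scaling by library totals alone called 2807 genes higher and 1890 lower, against 2199 and 2414 with TMM, and called the same 3 members. The median log2 fold change of the members was 0.08, and that of all tested genes was 0.00. The groups did not overlap for 4 of the 10 members, the 3 called genes and Acly, against 45.7% of all tested genes.

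Fasn, which makes palmitate, had 311, 418 and 306 CPM in the high-fat diet libraries, against 190.2, 205 and 115 in the chow libraries. Every high-fat diet library lay above every chow library, and chow replicate 3 was the lowest of the 9. That library also stood apart in striated muscle markers, with a summed level of 1419 CPM and 8.23 to 52.5 CPM in the other 8. The log2 fold change was 1.02 ± 0.23 (SE), or 2.03-fold higher (adjusted p = 0.0105), and without chow replicate 3 it was 0.81 (adjusted p = 0.0135). Srebf1, the regulator, had 145, 172 and 161 CPM in the high-fat diet libraries, against 111, 82.2 and 102 in the chow libraries. Its groups were also separate, with a log2 fold change of 0.69 ± 0.15 (adjusted p = 0.00855). Both calls held when any single library was left out, with adjusted p up to 0.0342 for Fasn and 0.0313 for Srebf1, and both were lost with chow replicates 2 and 3 left out together (adjusted p = 0.0586 and 0.104). Srebf1 shares 109 bases at its 3′ end with Rai1 on the opposite strand, and the sources used here do not say whether counting used strand. Rai1, a chromatin gene, had a log2 fold change of 0.49 ± 0.19 in this comparison (adjusted p = 0.0743).

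Fads1, the delta-5 desaturase, had 115, 88.2 and 69.2 CPM in the high-fat diet libraries, against 66.3, 52.6 and 49.1 in the chow libraries. The lowest high-fat diet library lay just above the highest chow library. Its log2 fold change was 0.70 ± 0.21 (adjusted p = 0.0319). The call did not hold with high-fat diet replicate 1 (adjusted p = 0.0988) or 2 (0.0654) or chow replicate 2 (0.0878) or 3 (0.0876) left out, nor with the 6 libraries compared alone (0.0627). Acly, which supplies acetyl-CoA to Fasn, had 170.4, 215 and 154 CPM in the high-fat diet libraries, against 442, 241 and 217 in the chow libraries. The groups did not overlap, but chow replicate 1 was far above the other chow libraries, and the log2 fold change of -0.74 ± 0.27 did not pass the test (adjusted p = 0.0666). Without chow replicate 1 the change was -0.35 (adjusted p = 0.197). It passed without chow replicate 3 (adjusted p = 0.0358) and with DESeq2 (adjusted p = 0.0288). Chow replicate 1 stood apart from the other chow libraries in 6 squamous epithelium markers, whose sums were 131, 119.5 and 50.3 CPM in the high-fat diet libraries and 267, 1.87 and 6.60 CPM in the chow libraries, and their part in the Acly level was not tested.

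The groups also differed in markers of cell types. In bulk tissue, fewer cells of a type and less RNA per cell cannot be told apart. All 7 absorptive colonocyte markers fell in the high-fat diet group, where their summed level was 234 to 545 CPM, against 4011 to 8034 CPM in the chow group. Of 8 general epithelial markers only Krt18 rose and none fell (1 without high-fat diet replicate 2), and their sum was 8848 to 11650 CPM in the high-fat diet group and 11520 to 12650 CPM in the chow group. Summed smooth muscle markers were 1419 to 6902 CPM in high-fat diet libraries and 8575 to 12040 CPM in chow libraries, and 2 of the 6 fell. That count was 1 without high-fat diet replicate 1, 0 without high-fat diet replicate 2 or chow replicate 1, and 6 without high-fat diet replicate 3. The part of these differences in the changes of Fasn, Srebf1, Fads1 and Acly was not tested.

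The berberine group was compared with the high-fat diet group, which asks how these genes stood after berberine. Fads1, Fasn and Srebf1 fell and Acly rose, while the other 6 genes did not pass the test. Of all tested genes 30.7% were called in this comparison, 15.8% as higher and 14.9% as lower, against 4 of the 10 members (40.0%), with 1 higher and 3 lower. Library totals alone gave 1864 genes higher and 2689 lower, against 2292 and 2168 with TMM. The median log2 fold change was -0.11 over the members and -0.01 over all tested genes. The groups did not overlap for the 4 called genes, against 50.4% of all tested genes. The high-fat diet libraries are shared with the comparison above, so a high or low value in them moves both fold changes in opposite directions, and the 2 sets of calls are not independent.

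Fads1 had 43.0, 35.0 and 33.96 CPM in the berberine libraries, against 115, 88.2 and 69.2 in the high-fat diet libraries. The highest berberine library was well below the lowest high-fat diet library. The log2 fold change of -1.28 ± 0.21, a 2.43-fold lower level, had the smallest adjusted p of the members (0.00275 in edgeR's test, and at most 0.0148 with any 1 library left out). It missed the threshold when berberine replicates 1 and 2 were left out together (adjusted p = 0.052). Fads1 was also the only called member for which the berberine libraries lay outside the chow range.

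Fasn had 224, 183 and 196 CPM in the berberine libraries, against 311, 418 and 306 in the high-fat diet libraries. All berberine libraries were lower, by 0.78 ± 0.23 on the log2 scale (adjusted p = 0.0308). The call did not hold with berberine replicate 1 (adjusted p = 0.0518), 2 (0.101) or 3 (0.0822) left out, nor with high-fat diet replicate 2 (0.0962), the highest library of all. Srebf1 had 123, 109.9 and 97.0 CPM in the berberine libraries, against 145, 172 and 161 in the high-fat diet libraries, with no overlap. It fell by 0.54 ± 0.15 on the log2 scale (adjusted p = 0.0249), and the call did not hold with berberine replicate 2 (0.0731) or 3 (0.08) or high-fat diet replicate 2 (0.0803) or 3 (0.0525) left out, nor with no filter on low values (0.0514). Rai1, which overlaps it, fell too, by 0.70 ± 0.19 on the log2 scale (adjusted p = 0.0228).

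Acly went the other way from Fasn, the enzyme it feeds. It had 412, 368 and 316 CPM in the berberine libraries, against 170.4, 215 and 154 in the high-fat diet libraries. Every berberine library stood above every high-fat diet library, with a log2 fold change of 1.02 ± 0.27, or 2.03-fold (adjusted p = 0.0221). The call did not hold with berberine replicate 1 (adjusted p = 0.0649) or 2 (0.0596) or high-fat diet replicate 1 (0.0619) or 3 (0.0674) left out. With berberine replicates 1 and 2 both left out, Acly (0.25), Fasn (0.215) and Srebf1 (0.0981) all missed the threshold. In this comparison all 7 absorptive colonocyte markers rose, to a sum of 2592 to 3925 CPM in berberine libraries, against 234 to 545 CPM in high-fat diet libraries. Leukocyte markers rose in 4 of the 5 tested of 6, with sums of 1177 to 1255 CPM in berberine libraries and 400.3 to 703 CPM in high-fat diet libraries. That count was 3 to 5 with each library left out, and Lyz2 gave 746 to 850 CPM of the berberine sums. Itgam, the marker not tested, was lower in berberine (2.83 to 4.98 CPM) than in high-fat diet libraries (5.38 to 7.17 CPM). Of the 8 general epithelial markers only Krt18 fell and none rose (1 without high-fat diet replicate 2). The part of these markers in the members' changes was not tested.

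**Figure D2:**
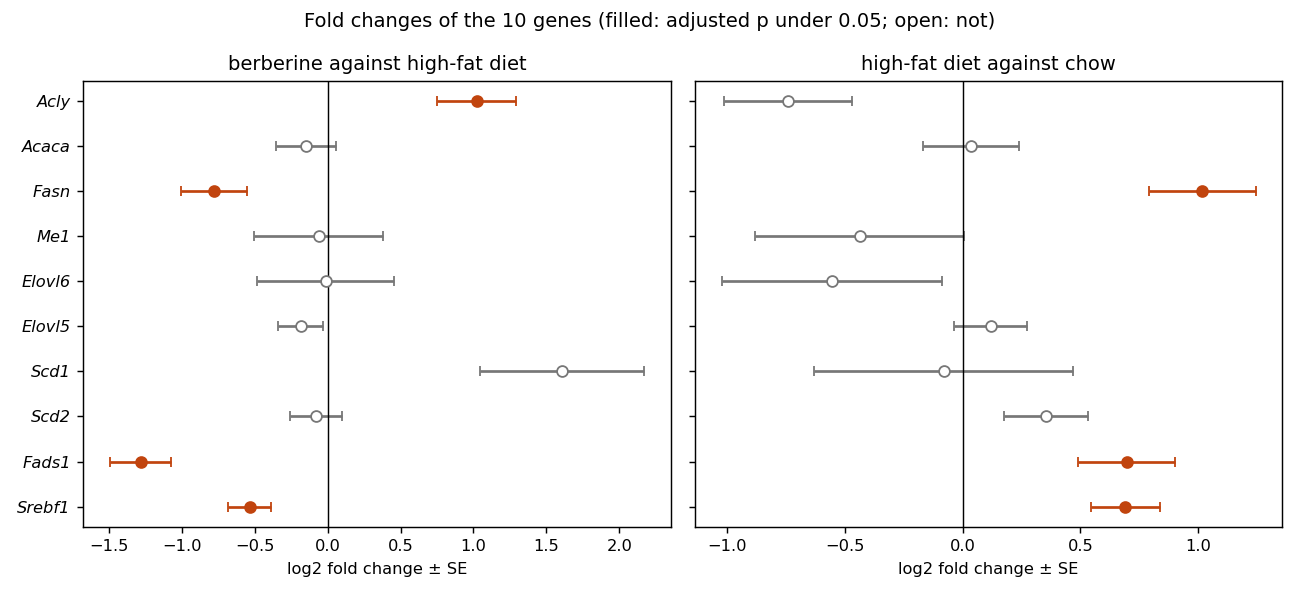
Log2 fold change (horizontal axes) with its SE for each of the 10 genes, berberine against high-fat diet on the left and high-fat diet against chow on the right, where filled points have an adjusted p under 0.05. The high-fat diet libraries enter both panels; Fads1, Fasn and Srebf1 lie below 0 on the left and above 0 on the right, and Acly is called only on the left.

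Scd1 and Scd2 encode desaturases that carry out the same step. Scd1 had 727, 651 and 120.4 CPM in the berberine libraries, 221, 149 and 121 in the high-fat diet libraries and 176, 206 and 138 in the chow libraries. Berberine replicates 1 and 2 stood far above all other libraries, while berberine replicate 3 was the lowest of the 9. The log2 fold change was 1.61 ± 0.56 against high-fat diet (adjusted p = 0.06) and 1.53 ± 0.56 against chow (adjusted p = 0.391), and neither passed the test. With DESeq2 the change against high-fat diet passed (adjusted p = 0.00841). Without berberine replicate 3 the change against high-fat diet was 2.06 (adjusted p = 0.00331), and without berberine replicates 1 and 2 it was -0.45 (adjusted p = 0.498).

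The same 2 berberine libraries were high in adipocyte markers. The summed level of the 11 markers was 1455, 1176 and 67.0 CPM in the berberine libraries, 66.2, 44.0 and 68.4 in the high-fat diet libraries and 197, 321 and 262 in the chow libraries. Adipoq, which encodes the fat cell hormone adiponectin, had 60.9, 49.1 and 0.313 CPM in the berberine libraries, 1.37, 0.292 and 0.129 in the high-fat diet libraries and 2.91, 11.1 and 1.76 in the chow libraries. Lep, the leptin gene, had a count of 0 in replicate 3 of all 3 groups, and Retn, the resistin gene, in berberine replicate 3 and high-fat diet replicates 2 and 3. Genes were tested if their mean over all 9 libraries was at least 1 FPKM. Plin1 passed through berberine replicates 1 and 2, with 8.03 and 7.79 FPKM there and 0.0236 to 1.02 FPKM in the others. Retn did too, with 12.2 and 6.67 FPKM there and at most 1.905 FPKM in the others. A count of tested markers that rose in berberine is therefore partly set by this filter. In the test, 7 of the 10 adipocyte markers tested rose in berberine against high-fat diet and 2 fell in high-fat diet against chow. The first count was 4 without berberine replicate 1 or 2 or high-fat diet replicate 3, 2 without high-fat diet replicate 2, 9 without berberine replicate 3 and 0 without berberine replicates 1 and 2. The second was 7 without berberine replicate 3 and otherwise 1 or 2 with each library left out. In berberine replicate 3, where these markers were low, Scd1 was as low as the lowest high-fat diet library. Acly there, at 316 CPM, was above every high-fat diet library. The chow libraries had higher marker sums than the high-fat diet libraries, while their Scd1 levels overlapped (138 to 206 against 121 to 221 CPM). Part of the chow sums came from Slc2a4, with 50.2, 38.4 and 62.0 CPM there. It had 20.7, 18.8 and 11.2 CPM in the berberine libraries and 7.71, 7.87 and 23.0 in the high-fat diet libraries. Its order of groups thus differed from that of the sums in berberine replicates 1 and 2. The part of fat tissue in the Scd1 and Acly levels was not tested.

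Scd2 had 315, 292 and 282 CPM in the berberine libraries, 257, 359 and 324 in the high-fat diet libraries and 283, 190.0 and 263 in the chow libraries. The 3 groups overlapped, and the berberine libraries differed little among themselves. The log2 fold change was -0.08 ± 0.18 for berberine against high-fat diet (adjusted p = 0.757) and 0.35 ± 0.18 for high-fat diet against chow (adjusted p = 0.164). On the FPKM scale the ratio of Scd1 to Scd2 was 2.58, 2.48 and 0.476 in the berberine libraries, 0.961, 0.464 and 0.416 in the high-fat diet libraries and 0.696, 1.21 and 0.585 in the chow libraries. Scd1 was thus above Scd2 in berberine replicates 1 and 2 and in chow replicate 2, and below it in the other 6 libraries. A two-sided exact permutation test on the log2 ratio gave p = 0.2 for berberine against high-fat diet and 0.4 for both other pairs (adjusted p = 0.4 for all 3 pairs). With 3 against 3 the smallest p it allows is 0.1, so it could not reach 0.05 and says nothing on whether the ratio differs. The transcripts of Scd1 and Scd2 share 145 stretches of 50 bases, 2.97% of those in Scd1 and 2.66% of those in Scd2. Few reads could therefore match both genes equally well.

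**Figure D3:**
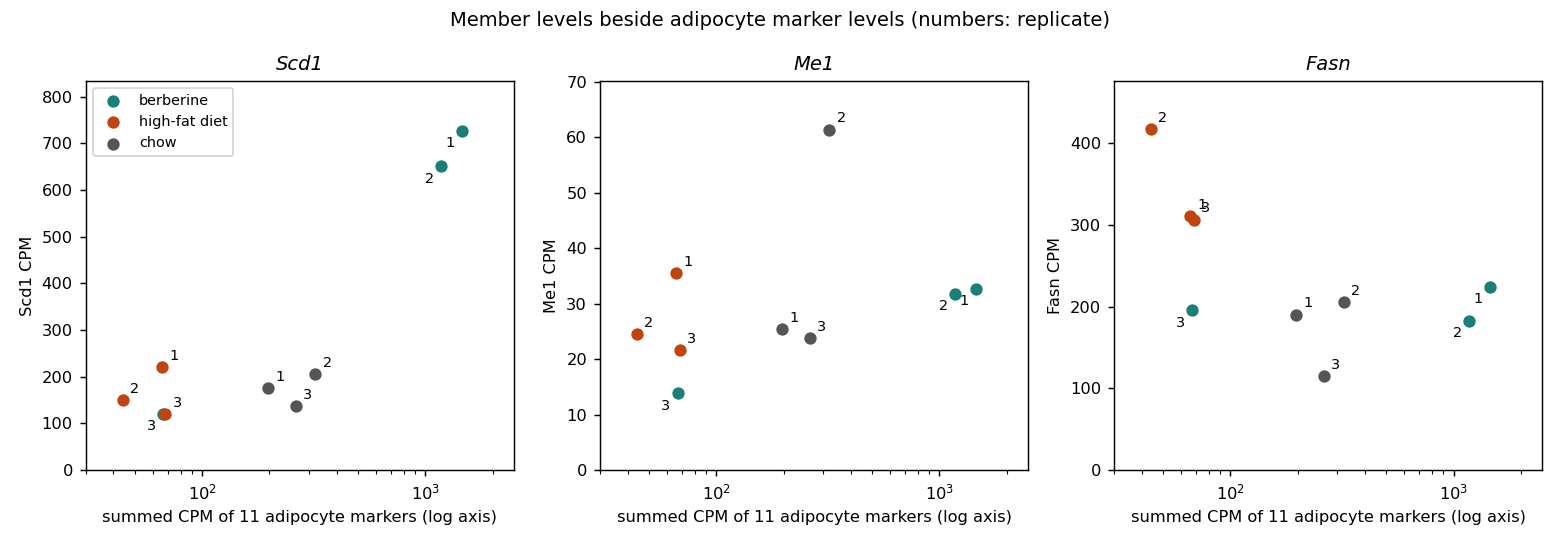
CPM of Scd1, Me1 and Fasn (vertical axes from 0) against the summed CPM of 11 adipocyte markers (horizontal log axis) in the 9 libraries, numbered by replicate. Berberine replicates 1 and 2, with marker sums of 1455 and 1176 CPM, hold the highest Scd1 levels, and the high-fat diet libraries, with sums of 44.0 to 68.4 CPM, hold the highest Fasn levels.

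Acaca, Elovl5, Elovl6 and Me1 passed no test in any comparison. Acaca, the malonyl-CoA enzyme, had 55.2, 56.8 and 50.4 CPM in the berberine libraries, 57.8, 68.7 and 53.3 in the high-fat diet libraries and 70.1, 65.0 and 40.4 in the chow libraries. Its log2 fold change was -0.15 ± 0.20 for berberine against high-fat diet and 0.04 ± 0.20 for high-fat diet against chow. Elovl5 had 89.2, 76.5 and 82.0 CPM in the berberine libraries, 84.0, 88.2 and 109 in the high-fat diet libraries and 102, 83.8 and 73.5 in the chow libraries. Both genes varied within a group about as much as between groups.

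Elovl6, which lengthens palmitate to stearate, had 32.7, 38.7 and 44.5 CPM in the berberine libraries, 36.5, 47.6 and 32.9 in the high-fat diet libraries and 42.8, 106 and 22.9 in the chow libraries. Me1 had 32.6, 31.8 and 13.8 CPM in the berberine libraries, 35.5, 24.4 and 21.7 in the high-fat diet libraries and 25.5, 61.4 and 23.8 in the chow libraries. In both genes chow replicate 2 was the highest of the 9 libraries, and in Me1 berberine replicate 3 was the lowest. The adipocyte marker sums were 1455, 1176 and 67.0 CPM in the berberine libraries and 321 CPM in chow replicate 2. Without berberine replicates 1 and 2 the log2 fold change of Me1 in berberine against high-fat diet was -0.975, against -0.06 with all libraries. The part of fat tissue in the Me1 level was not tested. The log2 fold change of high-fat diet against chow was -0.56 ± 0.47 for Elovl6 (adjusted p = 0.402) and -0.44 ± 0.44 for Me1 (adjusted p = 0.489). Among the 5 proximal colon markers, chow replicate 2 had 51.5 CPM of Osr2, against 2.32 and 1.83 in the other chow libraries, and 34.4 CPM of Reg3g, against 2.60 and 1.24. Hao2 had 482 CPM there, against 382 and 165, while Slc37a2 was lower, with 53.2 CPM against 229 and 177, and Fgf15 had a count of 0 in all chow libraries. The markers thus pointed in different ways, and their sum, to which Hao2 gave the most in that library, was 344 to 751 CPM in berberine libraries, 17.4 to 66.0 in high-fat diet libraries, and 616, 621 and 345 in chow libraries. The part of these markers in the levels of Elovl6 and Me1 was not tested.

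The berberine group was also compared with the chow group, whose libraries are shared with the first comparison. No member was called, and only 0.0483% of all tested genes were (7 of 14506), 0.0414% as higher and 0.00689% as lower. DESeq2 called 380 genes and again no member. At an unadjusted p under 0.05 there were 1579 genes, among them 2 members, Fads1 and Scd1. Fads1 had 43.0, 35.0 and 33.96 CPM in the berberine libraries, against 66.3, 52.6 and 49.1 in the chow libraries, and was the 1 member of 10 whose groups did not overlap, against 18.1% of all tested genes. Its log2 fold change was -0.59 ± 0.21 (adjusted p = 0.389). Fasn, with a log2 fold change of 0.24 ± 0.23, Acly, with 0.28 ± 0.27, and Srebf1, with 0.16 ± 0.15, had berberine libraries within or overlapping the chow range.

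Ratios within a library compare members with their partners free of the library's scaling. These are descriptions with no test, since the genes had been compared above. The ratio of Fasn to Acly on the FPKM scale was 0.263, 0.239 and 0.299 in the berberine libraries, 0.88, 0.939 and 0.959 in the high-fat diet libraries and 0.207, 0.41 and 0.256 in the chow libraries. In the high-fat diet group the synthase was thus nearly as abundant per length as the enzyme that feeds it, and in the other 6 libraries it was well below. The ratio of Fasn to Acaca was 6.34, 5.02 and 6.06 in the berberine libraries, 8.38, 9.48 and 8.96 in the high-fat diet libraries and 4.23, 4.93 and 4.45 in the chow libraries. These 3 groups did not overlap.

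Fads1 and Fads2 act in turn on the same fatty acids and are neighbours on chromosome 19, where Fads1 lies at 10182888 to 10196877 on the plus strand and Fads2, the delta-6 desaturase, at 10062765 to 10101746 on the minus strand (GRCm38). Fads2 had 603, 559.8 and 609 CPM in the berberine libraries, 252, 297 and 220.0 in the high-fat diet libraries and 560.5, 198 and 546 in the chow libraries. Chow replicate 2 was the lowest of all, and the other chow libraries lay near the lowest berberine library. Fads2 rose in berberine against high-fat diet by 1.20 ± 0.34 on the log2 scale (adjusted p = 0.0292), but the call did not hold with any 1 of the 6 libraries compared left out. The adjusted p was then 0.0666, 0.0646 or 0.0738 for berberine replicate 1, 2 or 3 and 0.0744, 0.0532 or 0.087 for high-fat diet replicate 1, 2 or 3. It also missed the threshold with the replicate block (0.0511), library totals (0.0517) and limma (0.0573 and 0.0579). The log2 fold change of high-fat diet against chow was -0.76 ± 0.34 (adjusted p = 0.122). The ratio of Fads1 to Fads2 on the FPKM scale was 0.0488, 0.0428 and 0.0381 in the berberine libraries, 0.313, 0.203 and 0.215 in the high-fat diet libraries and 0.081, 0.182 and 0.0616 in the chow libraries. The lowest high-fat diet ratio was above the highest ratio of the other groups, and no 50-base stretch was shared between the transcripts of Fads1 and Fads2.

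**Figure D4:**
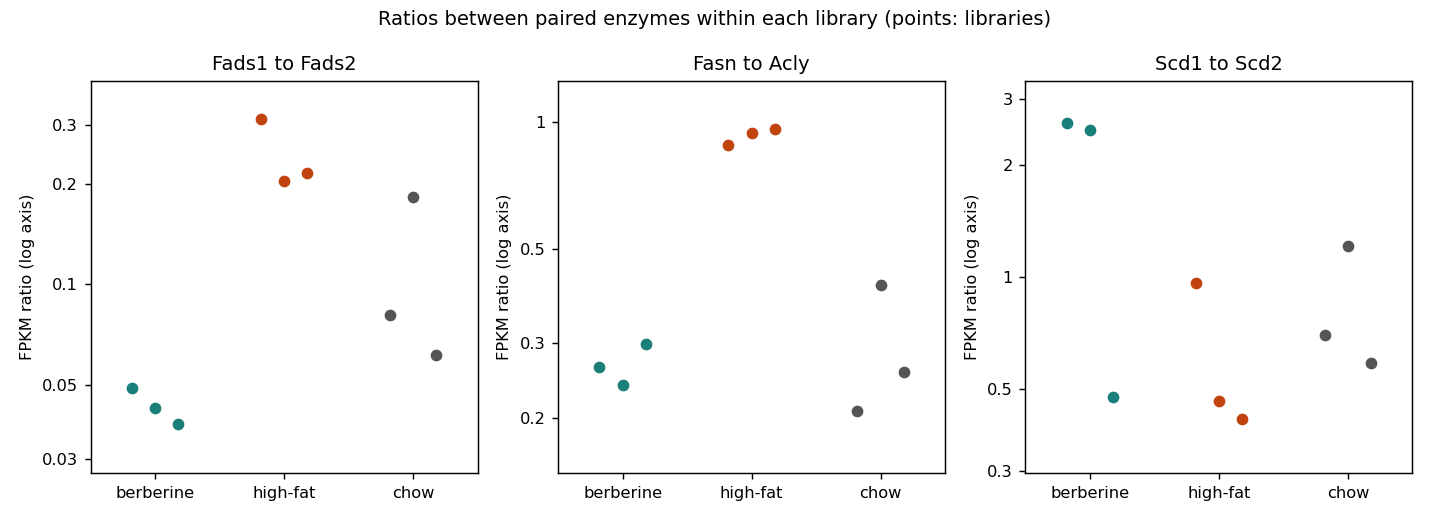
Ratios of FPKM levels (vertical log axes) of Fads1 to Fads2, Fasn to Acly and Scd1 to Scd2, 1 point per library. The high-fat diet libraries have the highest Fads1 to Fads2 and Fasn to Acly ratios, and berberine replicates 1 and 2 have the highest Scd1 to Scd2 ratios.

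Among the genes that supply substrate and NADPH, 1 of 9 tested rose and 3 fell in high-fat diet against chow, and 3 rose and 2 fell in berberine against high-fat diet. That is 44.4% and 55.6% called, against 31.8% and 30.7% of all tested genes. The 1 that rose became 2 with chow replicate 2 or high-fat diet replicate 3 left out, and the 2 that fell became 1 without berberine replicate 1 or 3 or high-fat diet replicate 1 or 2. Acss2, which makes acetyl-CoA from acetate, had 159, 174 and 169.6 CPM in the berberine libraries, 55.6, 82.7 and 66.7 in the high-fat diet libraries and 199, 158 and 133 in the chow libraries. It fell by 1.26 ± 0.19 in high-fat diet against chow (adjusted p = 0.00177) and rose by 1.29 ± 0.19 in berberine against high-fat diet (adjusted p = 0.00157), both on the log2 scale. Acly, the other source of cytosolic acetyl-CoA, also rose in berberine against high-fat diet and was not called in high-fat diet against chow. Cs, the citrate synthase, and Me2, the mitochondrial malic enzyme, changed the same way as Acss2. Cs fell by 0.99 ± 0.14 in high-fat diet against chow (adjusted p = 0.00137) and rose by 1.002 ± 0.138 in berberine against high-fat diet (adjusted p = 0.00132). Me2 fell by 1.26 ± 0.21 (adjusted p = 0.00318) and rose by 1.35 ± 0.21 (adjusted p = 0.0024) in the same comparisons. The absorptive colonocyte markers fell and rose in these comparisons too, and their part was not tested. Idh1, a cytosolic source of NADPH, did the reverse, with 127, 138 and 124 CPM in the berberine libraries, 225, 355 and 369 in the high-fat diet libraries and 152, 208 and 121 in the chow libraries. It rose by 0.98 ± 0.24 in high-fat diet against chow (adjusted p = 0.0143) and fell by 1.29 ± 0.24 in berberine against high-fat diet (adjusted p = 0.00477).

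The other elongation and desaturation genes, 13 tested of 18, gave 2 higher and none lower in high-fat diet against chow, and 2 higher and 2 lower in berberine against high-fat diet. The shares called were 15.4% and 30.8%, against 31.8% and 30.7% of all tested genes. With each library left out in turn, the counts were 1 to 2 higher and 0 to 1 lower in the first comparison, and 1 to 2 higher and 1 to 3 lower in the second. Hacd2, a dehydratase of the elongation cycle, had 40.7, 34.8 and 39.3 CPM in the berberine libraries, 122, 100.5 and 75.0 in the high-fat diet libraries and 33.7, 34.9 and 32.9 in the chow libraries. It rose by 1.55 ± 0.18 in high-fat diet against chow (adjusted p = 0.000562) and fell by 1.38 ± 0.18 in berberine against high-fat diet (adjusted p = 0.000933). Its relatives Hacd1 and Hacd3 were not called in either comparison. Hacd4 fell in berberine against high-fat diet. That call did not hold with berberine replicate 1 (adjusted p = 0.0516) or 2 (0.0577) or high-fat diet replicate 1 (0.0507) left out. Elovl7, an elongase of long chains, rose by 0.51 ± 0.11 in berberine against high-fat diet (adjusted p = 0.00959). In mitochondrial and accessory fatty acid synthesis, 7 tested of 8, none rose and 2 fell in high-fat diet against chow, and 1 fell in berberine against high-fat diet. These are 28.6% and 14.3%, against the same 31.8% and 30.7% of all tested genes. The 2 became 1 when chow replicate 1, chow replicate 2 or high-fat diet replicate 1 was left out, and 1 rose in berberine against high-fat diet without berberine replicate 3 or without chow replicate 2. Acacb, the acetyl-CoA carboxylase of the mitochondrial surface, fell by 1.67 ± 0.33 in high-fat diet against chow (adjusted p = 0.00582), and Cbr4, a reductase of mitochondrial synthesis, fell by 0.97 ± 0.21 in berberine against high-fat diet (adjusted p = 0.00919).

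Of the 19 genes of SREBP and LXR control, 4 rose and 4 fell in high-fat diet against chow, and 3 rose and 3 fell in berberine against high-fat diet. That is 42.1% and 31.6% called, against 31.8% and 30.7% of all tested genes, so the second share is close to that of all genes. With each library left out in turn, 1 to 3 rose and 2 to 4 fell in the first comparison, and 2 to 4 rose and 1 to 3 fell in the second. Mlxipl, which encodes the carbohydrate response factor ChREBP, had 33.0, 32.3 and 24.8 CPM in the berberine libraries, 14.8, 8.67 and 12.54 in the high-fat diet libraries and 32.6, 27.3 and 28.2 in the chow libraries. It fell by 1.29 ± 0.22 in high-fat diet against chow (adjusted p = 0.00315) and rose by 1.32 ± 0.22 in berberine against high-fat diet (adjusted p = 0.00288). Its partner gene Mlx fell by 0.71 ± 0.15 (adjusted p = 0.00783) and rose by 0.89 ± 0.15 (adjusted p = 0.00303) in the same comparisons. These are the opposite directions to Srebf1, the other lipogenic factor gene. Nfyb, a subunit of the CCAAT factor NF-Y, had 23.9, 25.8 and 23.3 CPM in the berberine libraries, 41.3, 43.6 and 42.6 in the high-fat diet libraries and 27.5, 27.4 and 28.9 in the chow libraries. It rose by 0.61 ± 0.11 in high-fat diet against chow (adjusted p = 0.00366) and fell by 0.80 ± 0.11 in berberine against high-fat diet (adjusted p = 0.00109). The other subunit genes, Nfya and Nfyc, had high-fat diet ranges that overlapped those of both other groups. Nfya had 50.2 to 52.4 CPM in berberine, 37.15 to 52.3 in high-fat diet and 36.2 to 38.0 in chow libraries. Nfyc had 36.0 to 41.2, 39.1 to 45.6 and 39.8 to 44.4 CPM in the same groups. For the SREBP-2 and cholesterol list, 0 of 8 genes were called in high-fat diet against chow and 1 rose in berberine against high-fat diet, and with each library left out these were 0 to 1 higher and 0 to 2 lower, and 0 to 1 in each direction.

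Of the 19 tested genes of triglyceride synthesis and acyl-CoA use, none rose and 6 fell in high-fat diet against chow, while 5 rose and none fell in berberine against high-fat diet. The shares called, 31.6% and 26.3%, are near the 31.8% and 30.7% of all tested genes. Acsl3, an acyl-CoA synthetase, fell by 0.63 ± 0.15 in high-fat diet against chow (adjusted p = 0.0145) and rose by 0.76 ± 0.15 in berberine against high-fat diet (adjusted p = 0.00707). Fabp2, the intestinal fatty acid-binding protein, had 11.02, 21.3 and 43.0 CPM in the berberine libraries, 3.13, 2.39 and 1.37 in the high-fat diet libraries and 39.5, 489.6 and 22.97 in the chow libraries. It fell by 6.32 ± 1.298 in high-fat diet against chow (adjusted p = 0.00737). Chow replicate 2 was far above all other libraries, and without it Fabp2 fell by 3.76 (adjusted p = 0.00458). Plin2, a lipid droplet coat protein, fell by 0.59 ± 0.14 in high-fat diet against chow (adjusted p = 0.0137, and 0.0506 without high-fat diet replicate 2) and rose by 0.84 ± 0.14 in berberine against high-fat diet (adjusted p = 0.00309). Without each library in turn, the number that fell in the first comparison was 3 to 6 and the number that rose in the second 3 to 5. AMP-activated kinase is known to switch off acetyl-CoA carboxylase, and of 8 genes on that list 3 fell in high-fat diet against chow and 1 rose in berberine against high-fat diet. The first count was 2 when high-fat diet replicate 1 or chow replicate 3 was left out, and 1 when chow replicate 2, high-fat diet replicate 2 or high-fat diet replicate 3 was. Prkaa2 encodes a catalytic subunit of this kinase. It had 78.1, 93.9 and 101 CPM in the berberine libraries and 18.5, 32.3 and 24.6 in the high-fat diet libraries. The chow libraries had 118, 146 and 112. Prkaa2 fell by 2.32 ± 0.22 in high-fat diet against chow (adjusted p = 0.000305) and rose by 1.86 ± 0.22 in berberine against high-fat diet (adjusted p = 0.000635). Prkaa1, the other catalytic subunit gene, was not called in either comparison. Its level was 62.7 to 69.3 CPM in berberine, 70.9 to 81.9 in high-fat diet and 53.0 to 132.7 in chow libraries. With chow replicates 2 and 3 both left out, the calls of Acacb (adjusted p = 0.064), Acsl3 (0.0577), Idh1 (0.056) and Mlx (0.0648) in high-fat diet against chow did not hold. With berberine replicates 1 and 2 both left out, those of Cbr4 (0.14), Elovl7 (0.0801), Idh1 (0.0925) and Mlxipl (0.0837) in berberine against high-fat diet did not hold. Over all 7 lists, 7 of 83 tested genes rose and 18 fell in high-fat diet against chow, which is 30.1% against 31.8% of all tested genes. In berberine against high-fat diet 15 rose and 8 fell, 27.7% against 30.7%, and none was called in berberine against chow.

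**Figure D5:**
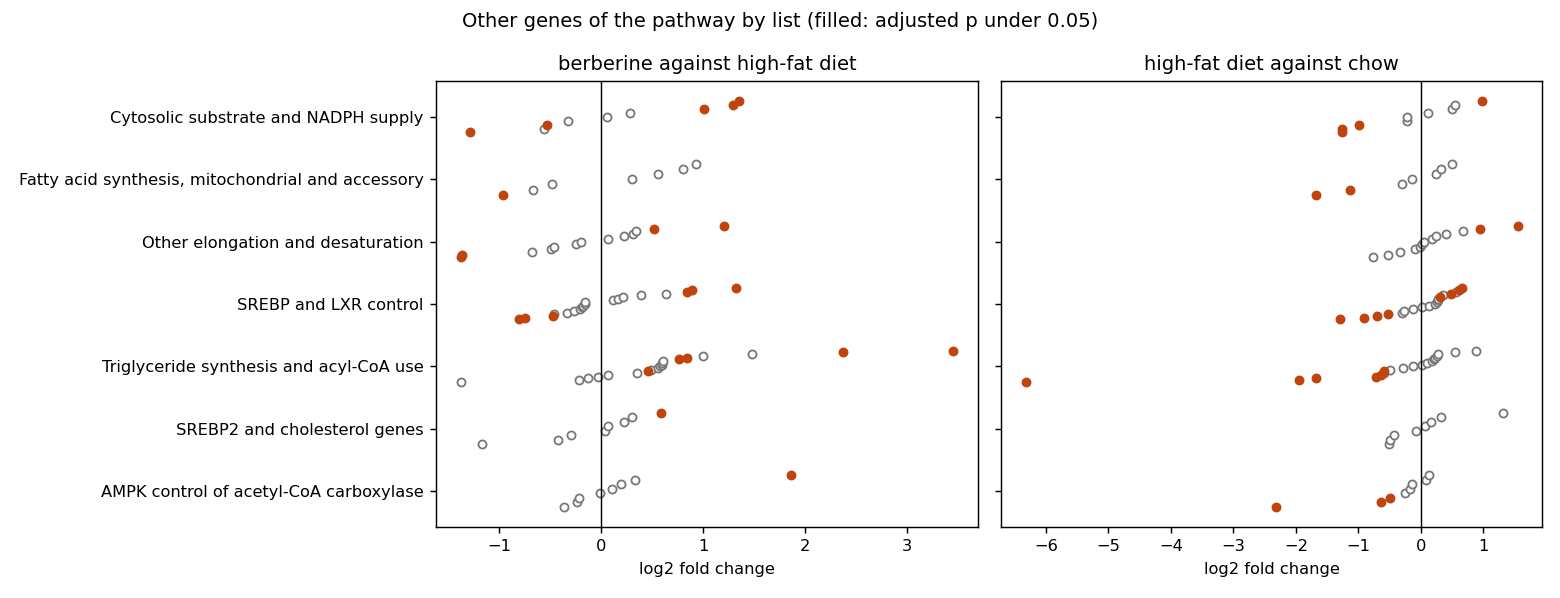
Log2 fold change (horizontal axes) of each tested gene on the 7 pathway lists (rows), berberine against high-fat diet on the left and high-fat diet against chow on the right, with genes at an adjusted p under 0.05 filled. Triglyceride and acyl-CoA genes that were called lie above 0 on the left, where 5 rose, and below 0 on the right, where 6 fell, and the high-fat diet libraries enter both panels. Their called shares were 26.3% on the left and 31.6% on the right, against 30.7% and 31.8% of all tested genes.

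Genes with patterns most like those of Fasn, Scd1 and Scd2 were found among 12717 other tested genes by the root mean square difference in centred log2(CPM + 1) over the 9 libraries. Nearest to Fasn were Eif2s1, a translation initiation factor subunit, with a difference of 0.126, Iars, an aminoacyl-tRNA synthetase, with 0.134, Celsr1 with 0.141, Ccne2, a cyclin, with 0.153 and Gpd2 with 0.159, where the median over all genes was 0.596. Nearest to Scd1 were Adig (0.28), Angptl4 (0.36), Ighv1-15 (0.369), Lipe (0.37) and G0s2 (0.393), against a median of 0.989. Adig had only 3.82, 3.28 and 0.0659 CPM in the berberine libraries, 0.206 to 0.333 in high-fat diet and 0.177 to 0.924 in chow libraries. Ighv1-15 had 0.145 to 5.17 CPM over all libraries. At such low levels the added 1 narrows the differences between libraries, so the match of these 2 genes rests partly on it. Lipe, which encodes hormone-sensitive lipase, is also on the adipocyte marker list. Its level was 62.3, 59.8 and 17.3 CPM in the berberine libraries, 11.99, 13.5 and 12.54 in the high-fat diet libraries and 18.8, 24.8 and 16.1 in the chow libraries. Nearest to Scd2 were Ak3 (0.083), Pgk1 (0.114), Epb41l4a (0.118), Srrt (0.118) and Mettl2 (0.119), against a median of 0.411.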

How the data were processed

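RNA from colonic tissue was poly(A)-selected and sequenced in paired ends from dUTP-stranded libraries with molecular identifiers, per the labels' protocols. Per the file headers, the deposited table gives 9 libraries a column of estimated counts and a column of FPKM values each. The submitters' processing notes name HISAT2 2.0.4, StringTie 1.3.4d, cutadapt 1.9, UMI-tools, edgeR, DESeq2 and the build GRCm38, with no role or order. The deposited estimated counts are whole numbers and are not scaled between libraries, and 38.5% of those from 1 to 20 are multiples of 4. The deposited FPKM values are 0.0001 wherever the count is 0.

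Counts were tested with edgeR 4.0.16 in R 4.3.3 (TMM scaling, quasi-likelihood, all 9 libraries, 3 groups) for the 14506 genes whose mean was at least 1 FPKM, with Benjamini-Hochberg adjustment over all of them and a threshold of 0.05. All 10 members passed that filter. The procedure was tested on simulated data. CPM values use TMM-scaled library sizes, and an SE is the log2 fold change over the root of its F statistic. Alternatives used DESeq2 1.42.0, limma 3.58.1 on log2 FPKM, other scalings and filters, a replicate block and left-out libraries. No pair of libraries within a group held the same counts. The members, pathway lists and marker lists were chosen with earlier results of these data known. All members are named. Genes of the other lists are named only from the 4 with the smallest adjusted p in a list and comparison, and not all of these are described. Relatives of such genes (Prkaa1, Hacd1, Hacd3, Nfya and Nfyc) are also named. The text adds 5 genes of like pattern for Fasn, Scd1 and Scd2. Promoters were read from RefSeq (GRCm38.p6), and shared 50-base stretches from GENCODE transcripts. Precision covers counting error and the spread of 3 libraries only.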

Additional observations from a re-analysis of the deposited data

How the results depend on the processing

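Over the alternatives run, 567 of 627 values of the members kept their direction and their side of the threshold. The same held for 688 of 789 values of other pathway genes. Those were only the called genes with the smallest adjusted p in their list and comparison. The member values include berberine against chow, where no member was called in any fit. Their share therefore does not measure the stability of calls. The calls of Fasn, Acly and Srebf1 in berberine against high-fat diet each held in 5 of 9 fits that left out 1 library. Those 5 include the 3 fits without a chow library, which is in neither group compared. Most fits without a berberine or high-fat diet library lost the call. With 3 libraries a group, calls near the threshold moved with single libraries. The number of members called in high-fat diet against chow was 2 to 3 with each library left out and 1 without chow replicates 2 and 3, where Acly was called as lower. In berberine against high-fat diet it was 1 to 4 with each library left out and 0 without berberine replicates 1 and 2. Such fits take the lone library to vary as the other groups do. In berberine against chow it was 0 in all. Deviations of same-numbered libraries correlated by -0.1 to 0.16 and those of other pairs by -0.22 to 0.16. These ranges were alike, which shows no pairing by replicate number over all genes but cannot exclude one in some genes. The replicate block called 3, 4 and 0 members in the 3 comparisons. Library totals alone moved the median log2 fold change of all genes to 0.128 in high-fat diet against chow and -0.116 in berberine against high-fat diet. Acaca was not tested at a mean of at least 5 FPKM. Values that turned sign were all of genes not called, and the cause was not tested. In high-fat diet against chow, chow replicates 2 and 3 left out gave -0.216 for Acaca, -0.113 for Elovl5 and 0.107 for Me1, library totals gave 0.059 for Scd1, and limma gave 0.016 and 0.015 for Scd1. Single libraries left out gave -0.165 to 0.185 for Acaca, -0.363 to 0.111 for Scd1, -0.929 to 0.251 for Elovl6 and -0.678 to 0.147 for Me1. In berberine against high-fat diet, berberine replicates 1 and 2 left out gave -0.445 for Scd1 and 0.19 for Elovl6, and the replicate block 0.046 for Elovl6. Single libraries left out gave -0.19 to 0.038 for Scd2, -0.136 to 0.164 for Elovl6 and -0.255 to 0.232 for Me1. In berberine against chow, chow replicates 2 and 3 left out gave -0.273 for Acly, -0.015 for Srebf1 and 0.035 for Me1, and berberine replicates 1 and 2 left out gave -0.525 for Scd1 and -0.025 for Srebf1. Single libraries left out gave -0.316 to 0.034 for Acaca, -0.166 to 0.067 for Elovl5, -0.945 to 0.235 for Elovl6 and -0.735 to 0.078 for Me1.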
